A study of Mus musculus with 16 samples.

Results

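Mouse bone marrow cells grown towards mast cells were profiled for miRNAs at an early and a late stage of the same kind of culture. The early stage was 4 arrays of c-kit positive progenitors, and the late stage was 4 arrays of bone marrow-derived mast cells (BMMC). The members were chosen by array title, which gave 8 of the 16 arrays of the series. All cells came from Balb/c mice and were grown with IL-3 at 5 ng/ml and stem cell factor (SCF, the ligand of c-kit) at 20 ng/ml. The progenitors were pulled out on culture day 6 with magnetic beads against c-kit (CD117), and the submitters call them putative committed progenitors. The BMMC had been cultured for 4 weeks, are called immature by the submitters, and had received neither IL-9 and TGF-beta (the mucosal-type mast cells, MMC) nor IgE crosslinking (IgE-crosslinked BMMC), which are the treatments of the other 8 arrays. The progenitors therefore differ from the BMMC both in age of culture and in having passed a magnetic column. The submitters describe 4 biological replicates a group, without saying whether these were separate animals, so each p-value measures the spread between these samples.

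A miRNA is a short RNA cut from a hairpin precursor and loaded into an Argonaute protein, which it guides to messenger RNAs that pair with its seed, the bases near its 5′ end. The guide arm of the hairpin is usually kept and the passenger arm, marked here with an asterisk, is usually discarded, and several hairpins can be cut from a shared primary transcript. Mast cells arise from bone marrow progenitors that also give granulocytes, monocytes, erythroid cells and megakaryocytes, and c-kit signalling is needed for their growth. miR-223 is a miRNA of the granulocyte and monocyte lineage, miR-451 of red cells, and the miR-17-92 cluster promotes proliferation and is abundant in dividing precursors.

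The sequences that the results turn on are given first, 5′ to 3′, as RefSeq lists them for GRCm38.p6, with the seed (bases 2 to 8) in capitals. The first set holds the miR-17-92 cluster on chromosome 14, from miR-17 at chr14:115043684-115043706 to miR-92a at chr14:115044476-115044496 on the plus strand, with its relatives on the X chromosome and chromosome 5. It is shown because 10 of its members share 4 seeds.
miR-17: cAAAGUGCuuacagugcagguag
miR-20a: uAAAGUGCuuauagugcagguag
miR-106a: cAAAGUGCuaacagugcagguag
miR-20b: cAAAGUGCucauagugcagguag
miR-93: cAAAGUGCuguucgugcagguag
miR-106b: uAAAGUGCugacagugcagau
miR-18a: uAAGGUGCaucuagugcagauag
miR-19a: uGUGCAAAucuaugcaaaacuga
miR-19b: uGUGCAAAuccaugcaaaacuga
miR-92a: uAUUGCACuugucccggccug
miR-17 and miR-106a differ at 1 position, as do miR-19a and miR-19b, and miR-20a and miR-20b differ at 2, so the signal of such a pair may be shared between probes.

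The second set is a pair with the same seed that moved in opposite directions.
miR-146a: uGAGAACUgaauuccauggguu
miR-146b: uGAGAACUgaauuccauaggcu
These 2 sequences differ at 2 positions, both outside the seed, and come from chr11:43374435-43374456 on the minus strand and chr19:46342790-46342811 on the plus strand.

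The third set holds the families whose members were all called higher in BMMC.
miR-34a: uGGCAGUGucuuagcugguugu
miR-34b-5p: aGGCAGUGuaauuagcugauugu
miR-29a: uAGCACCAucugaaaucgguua
miR-29b: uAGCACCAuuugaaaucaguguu
miR-29c: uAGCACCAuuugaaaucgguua
miR-27a: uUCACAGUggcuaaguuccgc
miR-27b: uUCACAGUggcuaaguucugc
miR-26a: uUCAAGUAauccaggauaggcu
miR-26b: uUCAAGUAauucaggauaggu

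The fourth set holds the lineage miRNAs with large falls and the miR-181 family, whose members kept or lost level by member.
miR-223: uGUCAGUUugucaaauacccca
miR-451: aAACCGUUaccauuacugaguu
miR-130a: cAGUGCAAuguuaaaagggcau
miR-196b: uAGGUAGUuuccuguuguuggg
miR-181a: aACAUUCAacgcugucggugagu
miR-181b: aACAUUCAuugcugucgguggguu
miR-181c: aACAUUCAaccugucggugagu
miR-181d: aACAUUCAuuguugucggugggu

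Each 1-colour Agilent array held probes for 567 mouse miRNAs, labelled from 100 ng of total RNA. Well above background were 138 to 182 miRNAs on the progenitor arrays and 201 to 226 on the BMMC arrays. The progenitor arrays were dimmer, with a mean log2 scale factor 2.02 below that of the BMMC arrays. No spot was saturated. Progenitor replicate 4 stood apart from the other progenitors: it had 138 miRNAs well above background against 171 to 182, and its correlation with them over the tested miRNAs was 0.936 to 0.943, against 0.986 to 0.990 among the other 3. Arrays of the 2 slides held 2 arrays of each group. Mast cell messenger RNAs were not measured, so the cell labels could be checked only against lineage miRNAs, which are given with the results.

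The text gives a level as log2 of the signal after each array was divided by the 75th percentile of its probes well above background on all 16 arrays, with a floor at 3.51, so a difference of 1 is a doubling. A miRNA was called when limma's Benjamini-Hochberg adjusted p for BMMC minus progenitors was under 0.05. Of 218 mouse miRNAs tested, 144 were called (66.1%), of which 44 were higher in BMMC (20.2%) and 100 lower (45.9%). The median difference over all 218 was -0.28 with this scaling (-0.0042 without progenitor replicate 4), 1.36 without scaling and 0.72 with the percentile of all probes. The sizes below are those of the main scaling unless another is named. The split between directions depended on how the brightness of the arrays was set. It was 124 higher and 33 lower with the percentile of all probes, 106 and 60 with quantile normalisation, 160 and 26 without scaling, 25 and 178 with a normexp background, and 66 and 80 with the total gene signal. By rank within each array, which no scale factor can move, 99 rose (45.4%) and 66 fell (30.3%) of 165 called (75.7%). Without progenitor replicate 4 the main scaling called 150, of which 63 were higher and 87 lower.

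**Figure D1:**
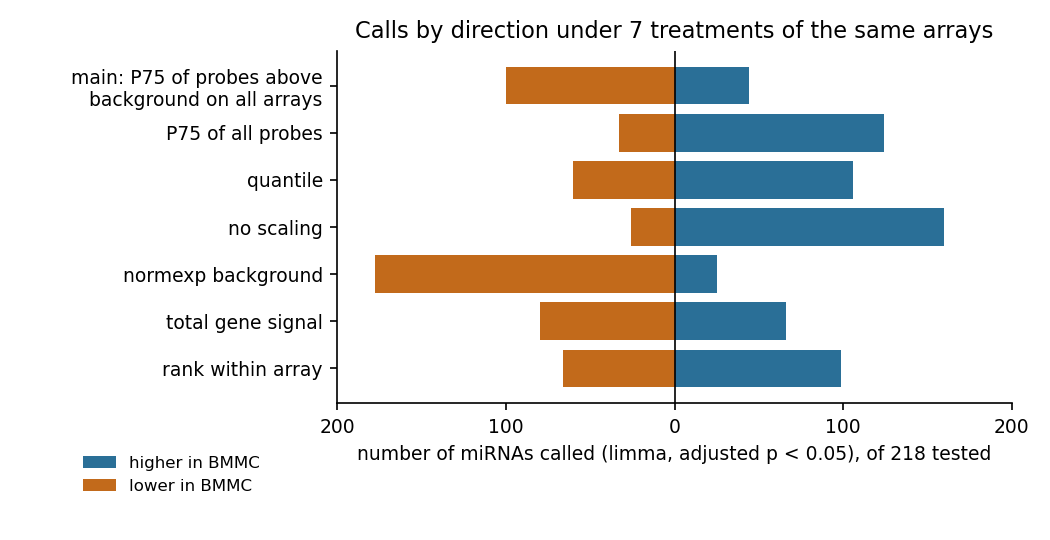
Number of miRNAs called higher (blue, to the right) and lower (orange, to the left) in BMMC than in progenitors, of 218 tested, under 7 treatments of the same 16 arrays. The lower calls range from 26 without scaling to 178 with the normexp background, and the higher calls from 25 to 160.

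The miRNAs followed here are those called in the same direction under all 7 treatments (the 6 ways of setting the level and the rank). There were 50 (22.9%), of which 24 were higher in BMMC (11%) and 26 lower (11.9%). Of the 26 falls 14 were above background on all 8 arrays, and of the 24 rises 23. A fitted fold depends on the floor where a group lies there, so the sizes of falls and rises are not directly comparable. With the main scaling the fitted fold of the falls was 1.60 to 17.5 with a median of 5.91, and that of the rises 1.17 to 7.23 with a median of 1.89. Without scaling the order was the other way round, with a median log2 difference of -1.05 for the falls and 2.94 for the rises. Progenitor and BMMC arrays were fully separated in 24 of the 26 falls and 22 of the 24 rises, against 126 of all 218 tested (57.8%). All 50 had the same sign within each slide, where 2 arrays stood against 2. The 50 were chosen by calls on these same arrays, so their separation and signs follow largely from that choice and give no separate support. Without progenitor replicate 4 the counts were 34 higher and 28 lower and held all 50. Leaving out progenitor replicate 1, 2 or 3 instead gave 17, 17 and 18 falls and 22, 24 and 21 rises. The falls lost in all 3 cases were miR-126-3p, miR-139-5p, miR-191*, miR-19a*, miR-19b, miR-467b, miR-677, miR-714 and miR-7b. A loss can also mean that a miRNA was no longer tested, since the filter still asked for 3 arrays above background. miR-126-3p, miR-139-5p, miR-191* and miR-19a* cleared it on only 3 progenitor arrays and on 0 or 1 BMMC arrays. The rises lost in 1 or more of the 3 were miR-101a, miR-21 and miR-494. miR-21 was also lost without BMMC replicate 1, 2 or 4. A fit of only the 8 arrays of this comparison gave 21 rises and 22 falls. It lost miR-21, miR-27a, miR-494, miR-19a*, miR-19b, miR-685, miR-7a and miR-7b.

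**Figure D2:**
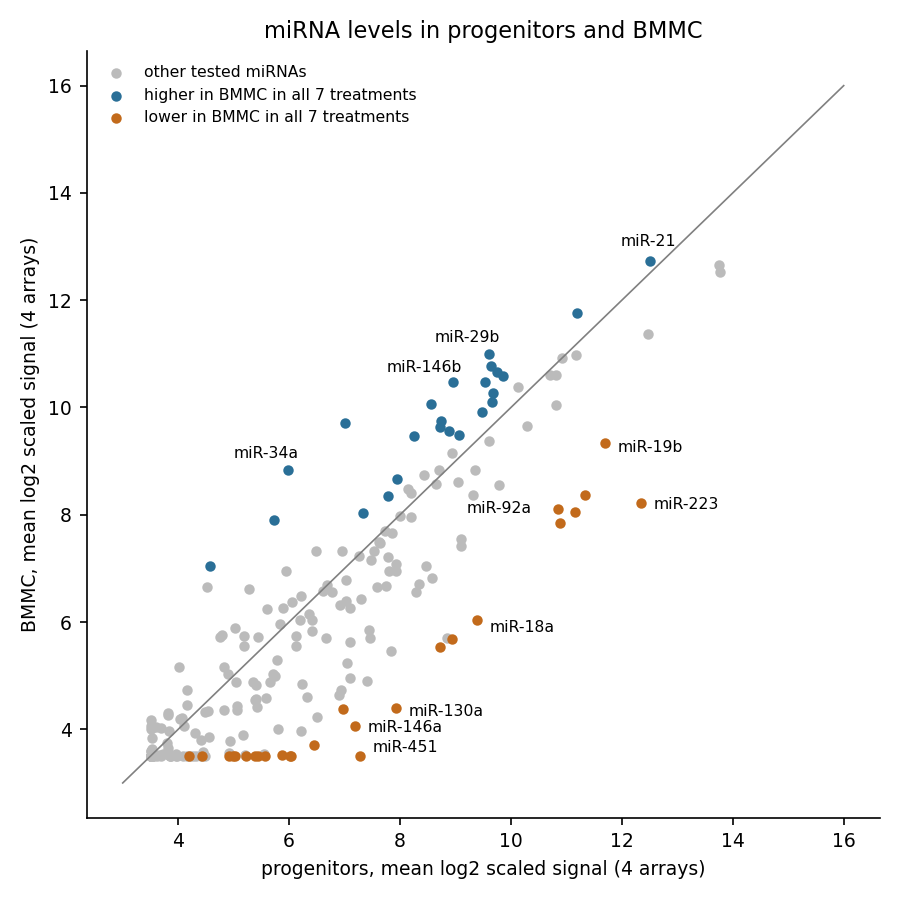
Mean log2 scaled signal of 218 miRNAs in the 4 progenitor arrays (horizontal) and the 4 BMMC arrays (vertical), with the line of equality in grey. Orange points are the 26 miRNAs lower in BMMC under all 7 treatments, down to miR-223 at 12.35 against 8.22, and blue points the 24 that were higher, with miR-34a at 5.98 against 8.83.

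The miR-17-92 cluster fell as a whole in BMMC. All 10 of its tested members were lower, with a median difference of -2.75 against -0.28 for all 218 miRNAs, and all 10 fell in rank. That median was -0.88 without scaling and -1.23 with the percentile of all probes, against the 1.36 and 0.72 of all 218. Without progenitor replicate 4 the count was again 10 of 10, with a median of -2.57. Of the 10, 9 were called under all 7 treatments, the exception being miR-17*. miR-17, which represses cell cycle inhibitors and other brakes on growth, had levels of 8.96, 9.21, 8.85 and 8.75 in progenitor replicates 1 to 4 and of 5.19, 5.60, 5.73 and 6.20 in BMMC replicates 1 to 4. The lowest progenitor array was more than 2 log2 units above the highest BMMC array. The difference was -3.26 ± 0.19 (SE, n = 4 and 4, adjusted p = 2.7e-09), or 9.60-fold. In the raw signal, before any scaling, miR-17 was 239.2 to 334.9 on the progenitor arrays and 94.4 to 147.7 on the BMMC arrays, although the BMMC arrays were the brighter ones.

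miR-18a had the largest fall of the cluster, from 9.36, 9.55, 9.37 and 9.27 in progenitors to 5.67, 5.95, 6.01 and 6.54 in BMMC (-3.35 ± 0.16, adjusted p = 6.2e-10). miR-19b, a member of the cluster with another seed, fell from 11.73, 11.93, 11.60 and 11.53 to 9.10, 9.31, 9.33 and 9.60 (-2.36 ± 0.11, adjusted p = 3.6e-10). miR-92a, the last hairpin of the transcript, fell from 10.70, 11.11, 10.84 and 10.77 to 7.89, 7.95, 8.17 and 8.39 (-2.75 ± 0.12, adjusted p = 3.0e-10). In none of these did the groups overlap. miR-19a and miR-20a fell by 3.10 and 2.95. Among the passenger strands, miR-20a* fell by 2.74 and miR-17* by 2.37. miR-18a* was lower by 2.06 on average, but its levels of 4.93, 5.28, 4.90 and 7.15 in progenitors show replicate 4 far above the others, and all 4 BMMC arrays were at the floor.

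Relatives of the cluster on other chromosomes were lower too. On the X chromosome, miR-106a fell by 3.18 and miR-20b by 3.03, both called under all 7 treatments. Of the 106b-25 cluster on chromosome 5, which lies in an intron of the replication gene Mcm7, all 4 tested members were lower and fell in rank, with a median difference of -1.46 in level and of -11.3 points in rank. None of these 4 was called lower under all 7 treatments. miR-93 had levels of 9.10, 9.28, 8.98 and 9.02 in progenitors and of 7.08, 7.39, 7.38 and 7.78 in BMMC (-1.69 ± 0.13, adjusted p = 3.6e-08). For miR-25 the difference was -1.55 and for miR-106b -0.96. Without scaling these 3 were higher in BMMC, by 0.34, 0.47 and 1.06 in the order just given.

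**Figure D3:**
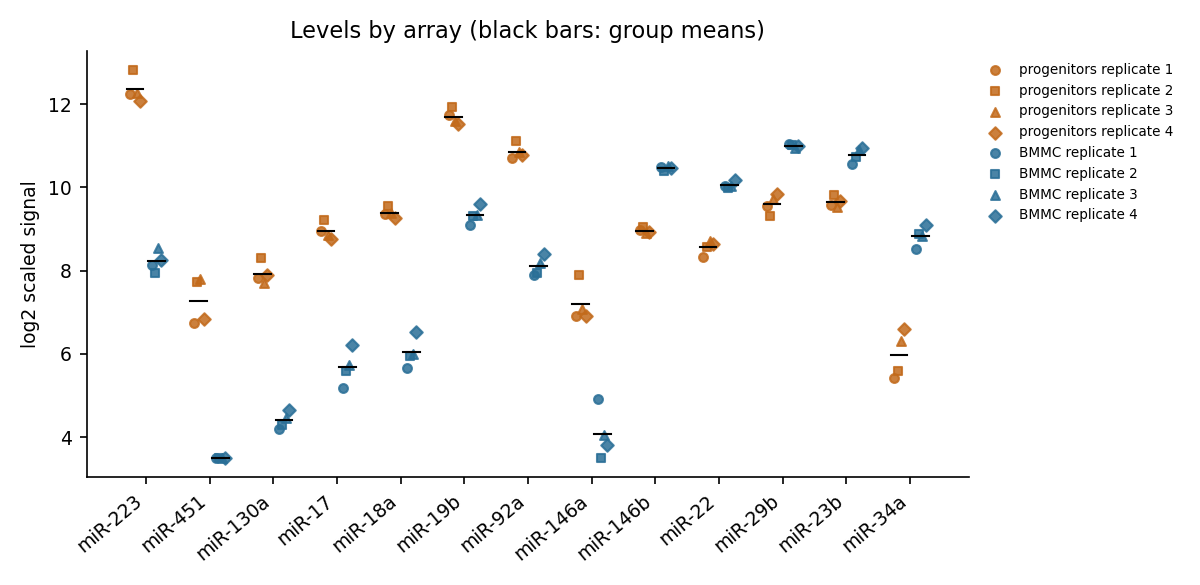
Log2 scaled signal of 13 miRNAs on each of the 4 progenitor arrays (orange) and 4 BMMC arrays (blue), with marker shapes for replicates 1 to 4 and a black bar at each group mean. The groups are apart for every miRNA shown, from miR-223 with progenitors at 12.07 to 12.81 and BMMC at 7.94 to 8.55, to miR-34a with 5.41 to 6.60 and 8.52 to 9.10.

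Several miRNAs known from neighbouring blood lineages were lower in BMMC, while the lists they belong to did not all move one way. miR-223, which restrains granulocyte production and activity, had levels of 12.24, 12.81, 12.27 and 12.07 in progenitors and of 8.14, 7.94, 8.55 and 8.26 in BMMC. The groups lay more than 3 log2 units apart, and the difference was -4.13 ± 0.19 (adjusted p = 3.6e-10), or 17.5-fold. It remained well above background on all 4 BMMC arrays, at rank percentiles of 77.8 to 81.9. The raw signal fell from 2562 to 3919 on the progenitor arrays to 614.6 to 922.2 on the BMMC arrays.

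miR-451, which is processed by Argonaute 2 without Dicer and accumulates in maturing red cells, had levels of 6.74, 7.73, 7.81 and 6.84 in progenitors. All 4 progenitor arrays held it well above background and no BMMC array did, where it sat at the floor. Its BMMC level is therefore a bound: the mean of the progenitors against the lowest signal well above background, or the probe's own signal where higher, on each BMMC array made it at least 41.5-fold lower (adjusted p = 8.8e-10), with measured means of 7.28 and 3.51. Without scaling the bound was at least 10.2-fold. By rank it went from percentiles of 58.0, 67.7, 72.7 and 56.7 to 2.5, 2.1, 1.6 and 3.0, where it lay among probes not above background.

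miR-130a, a miRNA of haematopoietic progenitors that falls as megakaryocytes mature, was 7.83, 8.30, 7.70 and 7.88 in progenitors and 4.19, 4.29, 4.46 and 4.66 in BMMC (-3.53 ± 0.15, adjusted p = 3.0e-10). miR-196b, which lies in the Hoxa locus and is expressed in immature haematopoietic cells, cleared the background on 4 progenitor arrays and no BMMC array, and was at least 17.2-fold lower with means of 6.01 and 3.51 (adjusted p = 2.1e-09). Without scaling this bound was 4.23-fold. miR-126-3p, a miRNA of endothelial and haematopoietic stem cells, was 5.73, 5.90, 5.05 and 4.21 in progenitors and at the floor on all 4 BMMC arrays. With 3 progenitor arrays above background, it was at least 9.96-fold lower in BMMC with the main scaling (adjusted p = 4.9e-05) and 2.45-fold without scaling. For miR-196b and miR-126-3p the arrays of BMMC, MMC and IgE-crosslinked BMMC all lay at the floor, with an SD of 0. The SD in progenitors was 0.41 and 0.77. The limma p-values pool the spread of all groups, so they understate the spread of the progenitors.

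The lists of lineage miRNAs stand beside 45.9% lower and 20.2% higher among all tested miRNAs. The granulocyte and monocyte list had 6 tested members, 5 lower and 1 higher, with a median of -1.34 (0.68 without scaling). Its summed signal, on the log2 scale, was 14.3 to 14.5 in progenitors and 13.1 to 13.3 in BMMC. Of 5 erythroid and megakaryocytic miRNAs 3 were lower (2 without progenitor replicate 4), with a summed signal of 11.4 to 11.6 against 11.0 to 11.1. Their median was -0.43 in level (0.99 without scaling) and 0.34 points in rank. miR-486, a red cell marker beside miR-451, did not follow it. Its rank percentiles were 15.8 to 29.1 in progenitors and 17.2 to 24.1 in BMMC. Of 6 stem cell and Hox-locus miRNAs 5 were lower (4 without progenitor replicate 4), with a summed signal of 9.26 to 9.76 against 7.37 to 7.57. For miR-10a and miR-10b of this list the groups overlapped. miR-10a was 5.36, 5.76, 4.56 and 6.65 in progenitors and 5.02, 4.59, 4.69 and 4.00 in BMMC. Its rank percentiles were 41.5, 43.3, 26.4 and 53.0 against 46.6, 40.6, 42.9 and 27.8. miR-10b was 3.96, 4.18, 3.51 and 6.06 in progenitors, with replicate 4 far above the others, and had a mean of 3.53 in BMMC. miR-130b was lower without overlap, with means of 8.28 and 6.56. Of 7 lymphoid miRNAs 4 were lower and 1 was higher, a share of lower calls near that of all tested. The sums were 9.33 to 9.71 and 9.72 to 9.91, higher in BMMC. That rise came from miR-29c, the brightest member, with means of 8.26 in progenitors and 9.47 in BMMC. The other tested members of the list all had lower means in BMMC. For miR-150 this rests on progenitor replicate 4, with 4.29, 4.00, 4.32 and 5.52 in progenitors and a mean of 4.34 in BMMC. Without that replicate the list again had 4 lower and 1 higher. In rank 4 of its members rose and 3 fell, beside 45.4% and 30.3% of all tested. In other lists the brightest were miR-142-3p (granulocyte and monocyte, 13.76 and 12.66) and miR-16 (erythroid and megakaryocytic, 11.18 and 10.98). A sum follows its brightest members more than the list as a whole. Of 9 stromal miRNAs on the array 3 were bright enough to test, none of them a defining one. Of these 1 was higher and none lower, with a median of 0.32 (2 higher and a median of 0.55 without progenitor replicate 4), and their summed signal was 5.19 to 6.49 against 5.23 to 5.72. miR-130a counts in both the erythroid and the stem cell list, miR-150 in the erythroid and the lymphoid, and miR-10b in the stem cell and the stromal. The defining markers miR-144 (erythroid), miR-143, miR-145 and miR-214 (stromal) were too dim for the test. In arrays of whole cultures or sorted fractions, fewer cells of a type cannot be told apart from less of a miRNA per cell, and the part of other lineages in these differences was not tested.

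A further group of falls ended at or near the floor in BMMC, and its members apart from miR-20a* and miR-19a* are named after their values were seen. miR-139-5p was 5.03, 5.43, 5.02 and 4.15 in progenitors and at the floor on all 4 BMMC arrays, at least 8.02-fold lower (1.97-fold without scaling). miR-467b was 4.89, 5.22, 4.84 and 5.00 against the floor, at least 8.48-fold lower (2.09-fold without scaling). For miR-19a*, at least 4.86-fold lower (1.27-fold without scaling), progenitor replicate 4 was itself at the floor, so the groups overlapped. For miR-706 the levels were 5.96, 6.08, 5.88 and 6.20 in progenitors and at the floor in BMMC (-2.52 ± 0.07, adjusted p = 2.4e-12), so this size, its SE and its p depend on the floor. The raw signal of miR-706 was 30.4 to 48.5 on the progenitor arrays and 11.9 to 16.6 on the BMMC arrays. The second detected probe of miR-706 gave -1.25.

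The 2 miR-146 genes moved in opposite directions. Both miRNAs repress adaptors of Toll-like receptor signalling. miR-146a had levels of 6.91, 7.90, 7.07 and 6.91 in progenitors and of 4.91, 3.51, 4.06 and 3.80 in BMMC. The groups were apart, progenitor replicate 2 was above the other progenitors, and the difference was -3.13 ± 0.30 (adjusted p = 5.6e-07). miR-146b was 8.98, 9.05, 8.89 and 8.92 in progenitors and 10.49, 10.39, 10.51 and 10.47 in BMMC, a rise by 1.51 ± 0.07 (adjusted p = 3.2e-10). A second detected probe of each gave -3.06 and 1.61. Among 22 seed families with 2 or more matched members, this was the only one with members called both higher and lower under all 7 treatments.

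The miR-34 family included the largest rise in level among the miRNAs called under all 7 treatments. miR-34a, a target of p53 that represses cell cycle and survival genes, was 5.41, 5.58, 6.32 and 6.60 in progenitors and 8.52, 8.89, 8.82 and 9.10 in BMMC. The groups were almost 2 log2 units apart, and the rise was 2.85 ± 0.23 (adjusted p = 6.9e-08), or 7.23-fold. In rank it went from 42.0, 41.5, 53.9 and 52.1 to 82.8, 85.1, 85.1 and 85.5. miR-34b-5p, which has the same seed and another locus on chromosome 9, was 4.28, 3.99, 5.16 and 4.83 in progenitors and 6.68, 7.11, 7.05 and 7.32 in BMMC (2.48 ± 0.22, adjusted p = 2.3e-07). It cleared the background on 2 progenitor arrays, and a second detected probe gave -0.04, so this value rests on 1 probe. miR-135a* and miR-874 rose by 2.70 and 2.17, again with other probes that gave 0.19 and -0.40 at the least.

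The miR-29 family, known for repressing collagens and DNA methyltransferases, was higher in all 3 guide strands under all 7 treatments. miR-29b was 9.54, 9.31, 9.72 and 9.83 in progenitors and 11.03, 11.01, 10.95 and 10.99 in BMMC (1.40 ± 0.08, adjusted p = 3.4e-09). miR-29c rose by 1.22 and miR-29a by 1.01, without overlap between the groups. miR-29a and miR-29c differ at 1 position. Of the 6 tested members of the family, passenger strands included, 3 were higher and 1 was lower, with a median of 0.48, beside 20.2% of all tested miRNAs called higher. Leaving out progenitor replicate 4 gave 4 higher and a median of 1.06.

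The miR-23/27/24 clusters, present as a pair of copies on chromosomes 8 and 13, were higher in 6 of 7 tested members, with a median of 0.58. In rank 7 of 7 rose. Among all tested miRNAs 20.2% were higher in level and 45.4% in rank. Without progenitor replicate 4 all 7 were higher, with a median of 0.88. Without scaling the median was 2.60, against 1.36 for all 218. miR-23b was 9.57, 9.81, 9.53 and 9.67 in progenitors and 10.56, 10.72, 10.90 and 10.94 in BMMC (1.13 ± 0.08, adjusted p = 2.3e-08). miR-27b rose by 0.96, miR-24 by 0.60, miR-23a by 0.58 and miR-27a by 0.45. miR-24 is cut from both loci and cannot be divided between them.

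miR-22, a miRNA that represses the chromatin enzyme Tet2, was 8.32, 8.57, 8.71 and 8.64 in progenitors and 10.02, 9.99, 10.03 and 10.18 in BMMC (1.50 ± 0.08, adjusted p = 1.0e-09). miR-26a and miR-26b, both of which target the methyltransferase gene Ezh2, rose by 0.92 and 0.67, and miR-101a, which also targets Ezh2, by 0.70. miR-101b went the other way in level, with means of 7.92 in progenitors and 7.08 in BMMC. Of the 4 tested members of the miR-26 and miR-101 families, 3 were thus higher and 1 lower. In rank 3 rose and 0 fell. let-7i rose by 0.92. Smaller rises were seen for miR-195 (0.58), miR-107 (0.44) and miR-15a (0.43). The miR-15/16 list, which holds miR-195 and miR-15a, did not rise as a whole. Of its 6 tested members 2 were higher and 4 lower, with a median of -0.42 (1.60 without scaling). In rank 2 rose and 2 fell. Among all tested miRNAs 20.2% were higher and 45.9% lower in level. miR-652 (0.71) and miR-494 (0.72) stood outside the naming rule and are named after their values were seen. The miR-494 groups overlapped, at 9.25 to 10.76 and 10.38 to 10.86. miR-21, the most highly ranked member of the set, was 12.30, 12.68, 12.47 and 12.57 in progenitors and 12.70, 12.79, 12.57 and 12.87 in BMMC, a difference of 0.23 with overlap between the groups (adjusted p = 0.036).

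For miRNAs called under all 7 treatments the size of the difference depended on how levels were set. Over the 6 ways of setting the level, the difference of miR-223 ranged from -4.13 (main scaling) to -2.10 (no scaling), and that of miR-17 from -3.26 to -1.24. For miR-451 the range was -5.83 (total gene signal) to -1.64 (normexp). For miR-34a it was 1.65 (normexp) to 4.88 (no scaling), for miR-146b 1.42 to 3.53, for miR-22 1.34 to 3.52 and for miR-29b 1.40 to 3.42. Taken within each slide, miR-223 had a difference of -4.34 on slide 1 and of -3.92 on slide 2. The same values were -3.08 and -3.45 in the case of miR-17, while miR-34a gave 2.90 and 2.80. miR-146a differed most between slides among these, with -3.75 and -2.51.

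Several miRNAs known for roles in mast cells had no direction that held under all 7 treatments. miR-221, which represses Kit and is known from activated mast cells, was 9.26, 9.60, 9.25 and 9.26 in progenitors and 8.55, 8.82, 8.89 and 9.12 in BMMC (-0.50 ± 0.11, adjusted p = 0.0010). Without scaling it was higher by 1.52, and in rank its change of -1.8 points was not called (adjusted p = 0.064). miR-222, with the same seed, was lower by 0.97 in level, higher by 1.06 without scaling, and not called in rank (adjusted p = 0.10). miR-155, a regulator of inflammatory signalling, was 7.36, 7.90, 7.01 and 7.47 in progenitors and 6.12, 5.79, 5.72 and 5.79 in BMMC (-1.58 ± 0.16, adjusted p = 8.6e-07), and its rank fell by 10.1 points. Without scaling its difference was 0.44. For miR-142-3p, a miRNA of all blood cells, the level was 2.14-fold lower in BMMC with no overlap. Its rank was 99.3 to 99.8 in progenitors and 98.9 to 99.8 in BMMC, a change that was not called (adjusted p = 0.64). At the top of the scale a rank has little room to move, so it cannot test the level.

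The X-linked cluster that runs from miR-532 to miR-500, between chrX:7237695-7237716 and chrX:7248419-7248440, had 8 tested members, several of which entered the test through BMMC. miR-532-3p, miR-501-3p and miR-501-5p were well above background on no progenitor array and miR-532-5p on 2, so the progenitor ranks of these 4 lie within the background and no count over the cluster is given. miR-500 and miR-188-5p cleared the background on all 8 arrays. miR-500 rose by 1.00 in level and 22.8 points in rank, while miR-188-5p had a difference of -0.21 in level. No member was called higher under all 7 treatments.

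**Figure D4:**
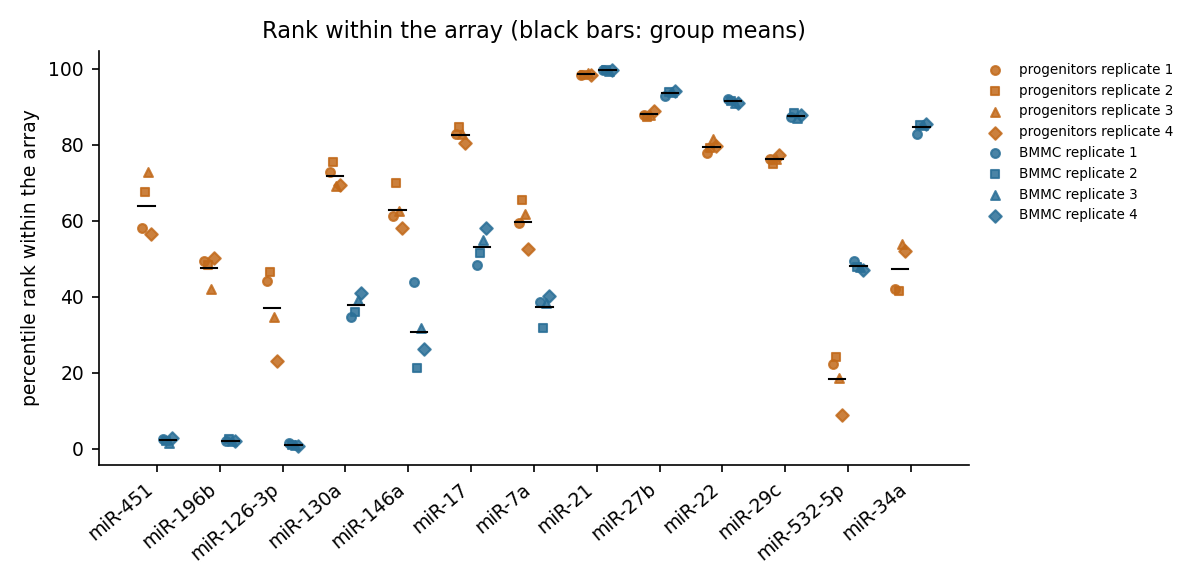
Percentile rank of 13 miRNAs among 218 within each progenitor array (orange) and BMMC array (blue), with marker shapes for replicates 1 to 4 and black bars at the group means. miR-451, miR-196b and miR-126-3p lie at percentiles of 3.0 or less in BMMC, where no array held them above background, and miR-34a climbs from 41.5 to 53.9 up to 82.8 to 85.5.

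The balance of directions differed between levels, with 44 higher and 100 lower, and ranks, with 99 and 66. Among miRNAs called by both, most had the same direction. There were 108 with the same direction, 6 lower in level and higher in rank, and 0 higher in level and lower in rank. The 6, which include miR-181c and miR-32, had levels lower by 0.19 to 0.48, which lies near the median of all miRNAs. The falls in rank that the naming rule picked, those of miR-451, miR-196b, miR-126-3p and miR-714, ended among probes not above background in BMMC (miR-714 cleared it on 1 array), where ranks have no order, so their sizes are not compared. The rises it picked included miR-34a (37.3 points), miR-877 (36.5) and miR-874 (34.5). miR-34b-5p, the other, cleared the background on only 2 progenitor arrays.

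The arms of a hairpin can be compared within an array, where the scale factor cancels as long as neither arm is at the floor. Of the called pairs, those of miR-338 and miR-106b had an arm at the floor on 3 BMMC arrays each, so they still depend on it. Both arms were bright enough in 19 hairpins, and the ratio changed in 9 (47.4%), with the passenger or 3p arm losing ground in 7 and gaining in 2. In 7 of the 19 the groups did not overlap (36.8%). For miR-29a* over miR-29a, the log2 ratio was -3.80, -3.69, -3.59 and -3.74 in progenitors and -4.93, -5.02, -4.67 and -4.85 in BMMC. The groups did not overlap, and the change was -1.16 ± 0.08 (adjusted p = 1.2e-08). In level, miR-29a rose by 1.01 and miR-29a* had a difference of -0.16. The ratio of miR-15b* to miR-15b fell by 0.74 and that of let-7c-2* to let-7c by 1.05. let-7c and miR-24 each come from 2 loci, so their pairs do not compare only the arms of 1 hairpin. The ratio of miR-17* to miR-17 rose by 0.89, from between -1.29 and -0.93 to between -0.44 and 0.03, so the guide strand fell more than the passenger.

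The ratio of miR-338-3p to miR-338-5p rose by 1.76 ± 0.26 (adjusted p = 3.5e-05). It was 2.43, 2.32, 2.39 and 0.97 in progenitors, with replicate 4 below the others, and 3.68 to 3.95 in BMMC, where the 5p arm was at or near the floor. For miR-142-3p over miR-142-5p the change was -0.34, with 2.87 to 3.01 in progenitors and 2.54 to 2.70 in BMMC. The calls for miR-106b*, miR-340-3p and miR-324-3p were the weakest, with changes of -0.40, -0.77 and -0.54, and in the first 2 the groups overlapped (adjusted p = 0.0074, 0.032 and 0.039). The number of hairpins called was 5 without progenitor replicate 1 or 3 and 14 without replicate 4. The number bright enough to test can also change when an array is left out and is not given here.

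**Figure D5:**
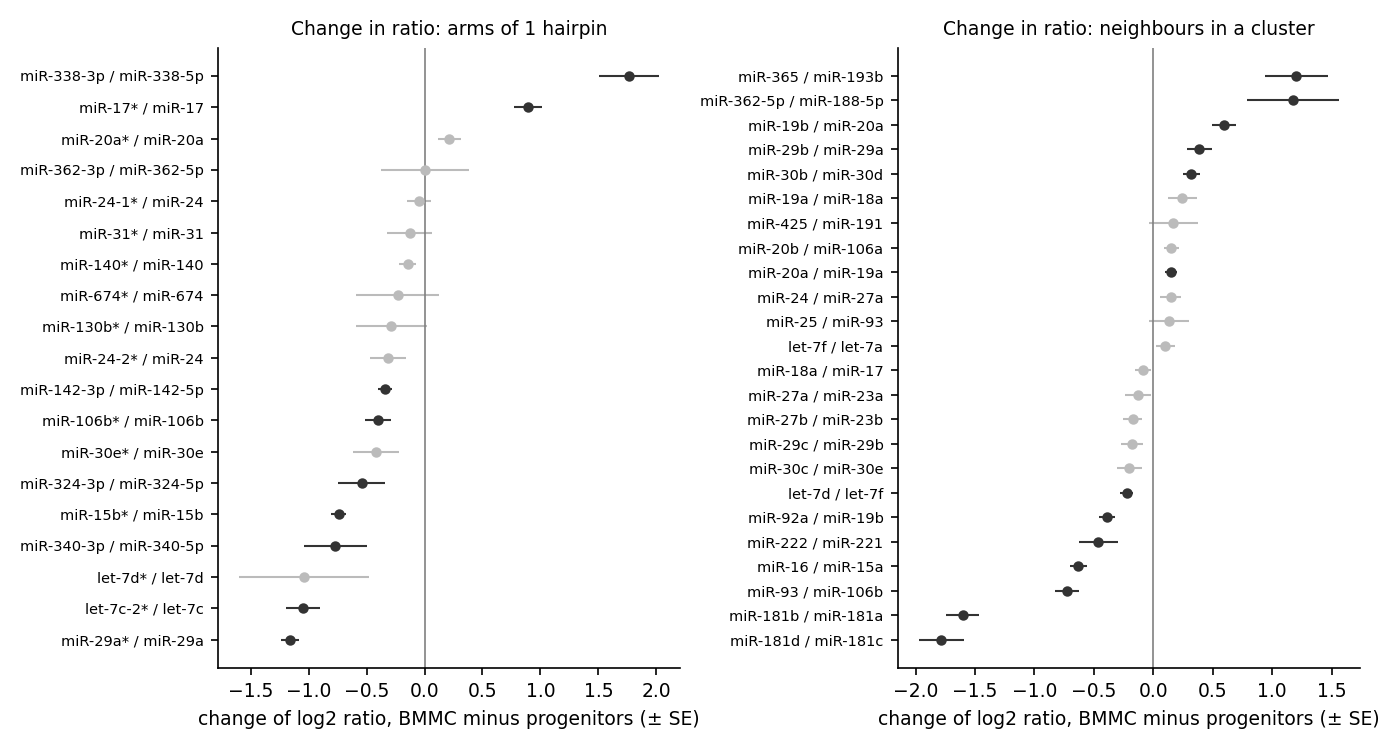
Change of the log2 ratio between BMMC and progenitors (BMMC minus progenitors, ± SE) for 19 pairs of arms (left) and 24 pairs of cluster neighbours (right), with called pairs in black. The changes run from -1.16 for miR-29a*/miR-29a to 1.76 for miR-338-3p/miR-338-5p, and from -1.78 for miR-181d/miR-181c to 1.20 for miR-365/miR-193b.

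miRNAs that lie in the same genomic cluster did not all move by the same amount. Of 24 neighbour pairs, 13 changed in ratio (54.2%), 7 down and 6 up. The groups did not overlap in 12 of the 13, and in 14 of all 24 (58.3%). The largest were in the miR-181 family, known for roles in T cell signalling and haematopoiesis. The log2 ratio of miR-181b to miR-181a was 0.83, 0.72, 0.55 and 0.61 in progenitors and -1.13, -1.02, -0.82 and -0.73 in BMMC, a change of -1.60 ± 0.14 (adjusted p = 3.2e-07). That of miR-181d to miR-181c was 0.72, 0.61, 0.50 and 1.04 in progenitors and -1.27, -1.14, -0.96 and -0.90 in BMMC, a change of -1.78 ± 0.19 (adjusted p = 1.5e-06). In level, miR-181b was lower by 1.81 and miR-181d by 2.27, whereas miR-181c was lower by 0.48 and miR-181a had a difference of -0.21 (adjusted p = 0.14). miR-181b and miR-181d differ at 1 position over the shared length, so their signals are not independent, and miR-181a and miR-181b each come from 2 loci, on chromosomes 1 and 2.

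Inside the miR-17-92 cluster the falls were close to each other, and 3 of the neighbour ratios changed by less than 1 log2 unit. miR-19b lost less than miR-20a (a change of 0.59 in the ratio), miR-92a lost more than miR-19b (-0.39), and miR-20a lost less than miR-19a (0.15). miR-19b and miR-92a have a second copy each on the X chromosome. In the 106b-25 cluster, miR-93 lost more than miR-106b, with the ratio changing from between -0.32 and -0.10 to between -1.04 and -0.82 (-0.73 ± 0.10). miR-16 over miR-15a changed by -0.63, from 1.60 to 1.78 in progenitors to 1.00 to 1.12 in BMMC. miR-365 over miR-193b rose by 1.20 and miR-362-5p over miR-188-5p by 1.17, the latter with 1 progenitor array at the floor. The remaining called changes were 0.39 for miR-29b over miR-29a, 0.32 for miR-30b over miR-30d, -0.23 for let-7d over let-7f and -0.47 for miR-222 over miR-221. miR-16, miR-365, miR-29b and let-7f each come from 2 loci, so their ratios are not those of a single transcript.

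Grouped by seed, 173 of the 218 tested miRNAs were matched to RefSeq and fell into 130 seeds, 22 of them with 2 or more members. All members were called lower in 5 families and higher in 4, and 6 had calls both ways, beside 45.9% lower and 20.2% higher among all tested miRNAs. In the family AAAGUGC, all 6 members (miR-17, miR-20a, miR-106a, miR-20b, miR-93 and miR-106b) were lower, by 0.96 to 3.26. The families of miR-19 (GUGCAAA), miR-7 (GGAAGAC), miR-92a (AUUGCAC) and miR-221 (GCUACAU) were the other 4. miR-7a fell by 2.60 and miR-7b by 2.35, which differ at 1 position over the shared length and were named after their values were seen. The 4 families whose members were all called higher were those of miR-34 (GGCAGUG), miR-29 (AGCACCA), miR-27 (UCACAGU) and miR-26 (UCAAGUA), all printed above.

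The other arrays of the series give levels for the same miRNAs in cells derived from BMMC. miR-223 had a mean of 7.40 ± 0.17 (SD, n = 4) in MMC and 8.50 ± 0.34 in IgE-crosslinked BMMC, beside 8.22 ± 0.25 in BMMC and 12.35 ± 0.32 in progenitors. miR-17 was 5.45 ± 0.29 and 5.89 ± 0.08, beside 5.68 ± 0.42 and 8.94 ± 0.19. miR-34a was 8.87 ± 0.09 and 8.79 ± 0.22, beside 8.83 ± 0.24 and 5.98 ± 0.57. The arrays of IgE-crosslinked BMMC had fewer miRNAs well above background (152 to 159) than 3 of the 4 progenitor arrays. miR-146b was 10.29 ± 0.09 and 10.71 ± 0.14, beside 10.47 ± 0.05 and 8.96 ± 0.07.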

How the data were processed

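Per the file headers, each array is a 1-colour Cy3 scan read with version 9.5.1.1 of the Feature Extraction software. The intensity used is the processed signal per spot, corrected for background before it was deposited. The deposited value table holds log2 values. It was rebuilt from the scanner files within 0.0155, as array-scaled values with each miRNA centred over the 16 arrays. Replicate spots were averaged per probe, leaving out controls and outliers, each array was divided by the 75th percentile of the 210 probes well above background on all 16 arrays, signals were raised to a floor of 11.4, and log2 was taken. The brightest probe stood for its miRNA. The 218 miRNAs tested cleared the background flag on 3 or more of the 4 arrays of progenitors, of BMMC or of both.

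limma 3.58.1 (R 4.3.3) fitted 4 group means to all 16 arrays, for levels, for percentile ranks without floor, and for log2 ratios of arms and of cluster neighbours, with Benjamini-Hochberg adjustment over all features of each fit. SE is limma's and SD is over the 4 arrays of a group. Where all arrays of a group lie at the floor, its spread is lost. The pooled spread and the p-values are then lowered, as for miR-451 and miR-706 in BMMC. The 7 treatments were this scaling, the percentile of all probes, quantile normalisation, no scaling, normexp with an offset of 50, the total gene signal, and the rank. The level, rank and arm fits were also run on simulated data, and the outcome is not given here. A fold bound took means of normalised log2 values as described at its first use. The number of arrays limits the precision.

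The members, lists and naming rule were chosen with earlier results of these data known. The rule names the 12 largest rises and 12 largest falls that held under all 7 treatments, a set of lineage and mast cell miRNAs, up to 4 members of each list, the 4 largest rank changes each way and the called pairs. miR-652 was taken out of the X-linked list because its RefSeq position lies elsewhere on that chromosome. Array names were matched to RefSeq for 173 miRNAs, 45 exactly and 128 by a table of changed names, and a miRNA with no printed sequence is named only. Same-numbered arrays did not deviate together (r of -0.117 to 0.043), and the main fits did not treat the replicate numbers as pairs. These correlations cannot tell whether same-numbered samples share an animal or a culture. Alternatives are given in the closing section.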

Additional observations from a re-analysis of the deposited data

Results flagged for a closer look

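In 5 of the 96 groups of 4 arrays behind the named levels, 1 array lay far from the other 3 (by Dixon's test of the gap to the nearest array over the group's range), which chance gives in about 1 of 20 groups. miR-146a was 7.903 in progenitor replicate 2, against 6.907 to 7.067 in the other progenitors. miR-221 was 9.60 in the same array, against 9.252 to 9.264. let-7i was 9.846 in progenitor replicate 4, against 9.706 to 9.722. miR-29c was 9.348 in BMMC replicate 3, against 9.514 to 9.523. miR-7b was 3.582 in BMMC replicate 4, against 3.505 to 3.512 at the floor of the other arrays.

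The array also carries 10 viral miRNAs that enter no comparison. The probes of mghv-miR-M1-2, a miRNA of murine gammaherpesvirus, were well above background on 6 of the 8 arrays, 2 of progenitors and 4 of BMMC. A control array without mouse RNA was not analysed here.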

How the results depend on the processing

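The 144 level calls and 165 rank calls stayed within 1.5 times under every alternative run, except when the test was kept to miRNAs above background on all 8 arrays, which left fewer to test and gave 95 and 96. Hairpins called were 9, and 15 with normexp. With an array left out, the filter can also change which miRNAs and pairs are tested. Leaving out 1 array at a time gave 133 to 150 level calls, 150 to 172 rank calls, 5 to 14 hairpins (5 without progenitor replicate 1 or 3, 14 without replicate 4), 10 to 17 neighbour pairs, 21 to 34 rises under all 7 treatments and 17 to 28 falls (17 without progenitor replicate 1 or 2). With a slide block the counts were 144, 165, 9 and 13, and with a replicate block 143, 164, 9 and 13, although the labels do not say whether the numbers pair the arrays. The medians of the miRNA lists moved by more than the spread between arrays in 168 of the 645 recomputed values. Direction turned for the following, where the cause was not tested. Without scaling, miR-93 was higher in BMMC by 0.34, miR-106b by 1.06, miR-25 by 0.47, miR-155 by 0.44, miR-221 by 1.52, miR-222 by 1.06, miR-142-3p by 0.93 and miR-181b by 0.21. With the percentile of all probes, miR-106b was higher by 0.60, miR-25 by 0.010, miR-221 by 1.06, miR-222 by 0.60 and miR-142-3p by 0.46. Centring on the median of miRNAs above background on all 8 arrays gave miR-221 0.096. The authors' table gave 0.027 for miR-106b, 0.48 for miR-221 and 0.020 for miR-222. With normexp, miR-532-5p changed by -0.48, the ratio of miR-106b* to miR-106b by 0.23, of miR-324-3p to miR-324-5p by 0.11 and of miR-362-5p to miR-188-5p by -0.17. With the floor doubled, the ratio of miR-106b* to miR-106b changed by 0.56. The rank of the authors' values was not run, since values centred per miRNA give no rank of signals. Where BMMC or progenitors were not above background, as for 35 miRNAs on all progenitor arrays and 6 on all BMMC arrays, the level there is a bound.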

Other observations

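The let-7 family, known for accumulating as cells differentiate, had calls in both directions. Of 10 tested members 3 were higher in BMMC and 1 lower, beside 20.2% higher and 45.9% lower among all tested. The median difference was -0.04 against -0.28 for all tested miRNAs. In rank 5 rose and 1 fell, beside 45.4% and 30.3% of all tested, so the rises were near the general share. Without progenitor replicate 4, 5 were higher and the median was 0.24. The median was 0.40 with quantile normalisation, 1.98 without scaling and 1.52 with the percentile of all probes. let-7a, the member that names the family, was 10.70, 10.88, 10.58 and 10.65 in progenitors and 10.60, 10.55, 10.69 and 10.57 in BMMC, with overlap between the groups (-0.10 ± 0.14, adjusted p = 0.55). Of 7 members of the miR-30 family none was higher and 2 were lower, with a median of -0.12, and 5 rose in rank, beside the same shares of all tested. With progenitor replicate 4 left out, 3 were higher and 1 lower, with a median of 0.19.

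The list used for the imprinted Dlk1-Dio3 cluster on chromosome 12, active in stem cells and embryonic tissue, had 44 members on the array. Of these 4 were bright enough to test, 1 higher and 1 lower, beside 20.2% higher and 45.9% lower among all tested. The list left out miR-134, which lies in the same region (chr12:109734145-109734166) and was also tested. Its mean was 4.17 in progenitors, with 3 arrays above background, and 4.46 in BMMC. miR-132, a miRNA induced by activation in several cell types, was well above background on no progenitor array and on all 4 BMMC arrays. miR-877, above background on 3 progenitor arrays, went from rank 34.6, 27.3, 32.3 and 18.1 in progenitors to 64.0, 67.2, 63.1 and 64.0 in BMMC.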
